A study of Mus musculus with 6 samples.

Results

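The imprinted growth genes are a set of 10 mouse genes, Dlk1, Meg3, Rian, Mirg, Peg3, Mest, Plagl1, Cdkn1c, Grb10 and Phlda2, chosen by name because each is known to be read mainly from 1 parental allele and to act on growth or to lie beside a gene that does. All 10 had probes on the array, 26 in total, and 9 genes with 23 probes were bright enough to test, out of 22946 genes and 35719 probes tested in all. They were measured in 6 teratomas, which are growths holding many tissue types that arise from implanted pluripotent cells. Mouse embryonic stem cells were placed under the skin of the flank of BALB/c Nude mice, an immunodeficient strain, and the mice were randomised to 2 groups of 3. One group received a miR-124a-3p mimic and the other a miRNA negative control. Both were given into the tumour with the carrier Atelogen QG, as 15 µg in 100 µL. Injections began when tumours had reached 100 mm3, about 10 days after implantation, and were repeated every 3 days, with day 28 as the last. No strain or line is named for the stem cells in the labels, age and sex of the mice were not used here, and the level of the mimic inside the tumours was not analysed here.

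Genomic imprinting marks a gene in the egg or the sperm, by DNA methylation at control regions, so that the offspring reads it from the mother's or the father's copy. Many genes read from the father's copy promote growth of the embryo and placenta, and many read from the mother's copy restrain it. In the Dlk1-Dio3 region of mouse chromosome 12, Dlk1 is read from the father's copy, while the noncoding RNAs Meg3, Rian and Mirg are read in 1 direction from the mother's. The arrays report the RNA of both copies together and say nothing about which allele made it.

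Each tumour came from a different mouse and was read on its own array, RNA was taken from 1 piece of a tumour cut in 2, and 63.4% to 65.9% of probes were well above background. All 6 arrays lay on 1 slide, with the miR-124a tumours in slide row 2 and the control tumours in slide row 1, so slide row and group cannot be told apart. Values below are log2 spot intensity relative to the array's 75th percentile. The level of 1 probe cannot be set against that of another, so levels are compared between tumours only. Differences are miR-124a minus control with their standard error, tested with limma over all genes, and a gene passed at an adjusted p under 0.05. Because these are bulk tumours, fewer cells of a type and less RNA per cell cannot be told apart. A teratoma has no single defining marker, and markers of neurons, skeletal muscle, endothelium, macrophages and keratinocytes were all measured above background in these tumours.

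Sequence shows what the noncoding probes read, because Meg3, Rian and Mirg each have several probes whose differences are given one by one below. The 8 probes shown, of 60 bases each, are given as the array file lists them, in lower case, with their mm9 positions, all on the listed plus strand.

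Meg3 A_55_P2736854 (AK157178, chr12:110783470-110783529): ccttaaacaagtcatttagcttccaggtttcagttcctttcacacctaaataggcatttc
Meg3 A_55_P2736010 (NR_003633, chr12:110799833-110799892): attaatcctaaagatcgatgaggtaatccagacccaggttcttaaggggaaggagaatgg
Meg3 A_65_P01584 (NR_003633, chr12:110806386-110806445): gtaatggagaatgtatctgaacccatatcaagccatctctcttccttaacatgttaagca
Meg3 A_51_P455997 (NR_027652, chr12:110809678-110809737): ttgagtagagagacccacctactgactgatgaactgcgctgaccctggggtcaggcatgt
Rian A_55_P2741381 (AF498300, chr12:110865343-110872442): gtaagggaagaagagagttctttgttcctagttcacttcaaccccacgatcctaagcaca
Rian A_55_P2723831 (NR_028261, chr12:110899840-110899899): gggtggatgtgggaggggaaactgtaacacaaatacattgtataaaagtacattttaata
Mirg A_55_P2336173 (AK077315, chr12:110979653-110979712): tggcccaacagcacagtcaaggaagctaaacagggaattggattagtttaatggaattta
Mirg A_66_P121059 (NR_028265, chr12:110987569-110987628): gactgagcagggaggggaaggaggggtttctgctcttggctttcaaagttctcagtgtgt

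The listed span of the Rian probe A_55_P2741381 is longer than its 60 bases. Meg3 has probes listed under 3 transcript records at different places along the gene. The array annotation gives these spans and accessions and does not say which exon each probe lies in.

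The start regions of Dlk1, Meg3 and Mirg on chromosome 12 are shown because DNA methylation, which acts on CG dinucleotides, is the mark of imprinting. For each, the 250 bases before the annotated start are given from RefSeq, build GRCm38.p6, plus strand, with every CG in capitals. These positions are of another build than those listed for the probes and were not converted. The Rian start is not shown, and whether any of these starts is a control region of imprinting was not examined.

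Dlk1 (chr12:109452573-109452822): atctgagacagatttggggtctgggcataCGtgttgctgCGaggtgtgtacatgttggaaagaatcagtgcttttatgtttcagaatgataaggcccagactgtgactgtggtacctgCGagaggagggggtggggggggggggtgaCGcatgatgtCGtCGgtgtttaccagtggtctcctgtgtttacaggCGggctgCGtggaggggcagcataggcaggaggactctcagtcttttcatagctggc
Meg3, first start (chr12:109540746-109540995): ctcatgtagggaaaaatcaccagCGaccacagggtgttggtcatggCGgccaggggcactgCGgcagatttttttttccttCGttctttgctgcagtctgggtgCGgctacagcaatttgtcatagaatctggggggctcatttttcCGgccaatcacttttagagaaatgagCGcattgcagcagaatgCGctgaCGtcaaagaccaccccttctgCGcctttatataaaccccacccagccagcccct
Meg3, second start (chr12:109545148-109545397): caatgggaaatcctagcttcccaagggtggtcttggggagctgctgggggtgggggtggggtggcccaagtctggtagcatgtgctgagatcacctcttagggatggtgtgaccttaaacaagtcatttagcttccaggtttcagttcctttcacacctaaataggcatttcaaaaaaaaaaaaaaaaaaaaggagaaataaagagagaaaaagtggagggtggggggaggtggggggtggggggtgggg
Mirg (chr12:109734731-109734980): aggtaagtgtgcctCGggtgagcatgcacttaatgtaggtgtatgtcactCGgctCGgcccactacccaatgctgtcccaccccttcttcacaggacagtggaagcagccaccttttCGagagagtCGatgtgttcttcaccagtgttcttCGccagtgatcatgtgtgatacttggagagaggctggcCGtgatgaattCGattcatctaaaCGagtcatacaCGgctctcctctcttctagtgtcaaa

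Over windows of 300 bases, which add 50 bases after the start, Dlk1 had 9 CG, Mirg 10, and the 2 Meg3 starts 13 and 1. The median over all 32851 windows was 7, with quartiles of 3 and 20. Of the 10 members 9 had a window, 13 windows in all, and 11 of the 13 were above that median. Some were only just above it, with 8 CG at a Mest start and 9 at Dlk1 and at a Grb10 start. The Mest windows from 30737800 and 30737803 overlap almost wholly and are counted separately. The fullest were a Grb10 start with 45 CG and the starts of Plagl1 and Phlda2 with 26 each, while the Rian window held 0. The letters TATAAA, searched on both strands, were in 2 of the 13 windows (the first Meg3 start and Phlda2) and in 13.6% of all windows. The letters CAGCTG, also searched on both strands and equal to their own reverse complement, were in 2 of the 13 (Mest and Phlda2) and in 16.3% of all windows. Methylation was not measured in this study. Of 25 member probes searched, 1 matched a window letter for letter: the Meg3 probe A_55_P2736854, in the same orientation, at chr12:109545260-109545319 (GRCm38.p6), ending 78 bases before the second Meg3 start. It thus reads RNA from upstream of the second annotated start and downstream of the first, whose window ends at 109541045. This probe is the one that represents Meg3 in the fit over genes.

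Of the 9 members tested, Dlk1 and Mirg fell in the miR-124a tumours, 0 rose and 7 did not pass (limma, Benjamini-Hochberg over all genes). In the same fit 3.23% of all genes passed in either direction, 2.75% as lower and 0.488% as higher. Both calls lie close to the threshold, and no member passed when any 1 tumour was left out, when the replicate number was a block in the fit, or when dim probes were not filtered. In all, 7 of the 9 members had a difference below 0, and their median was -0.59, against -0.002 over all genes. The 1363 genes with a mean above 4, which include Dlk1, Meg3, Rian and Plagl1, had a median of -0.20. The 3217 genes above 2 and up to 4, which include Mirg, Peg3, Mest and Cdkn1c, had a median of -0.04. For the 5329 genes above -2 and up to 0, which include Grb10, it was 0.03.

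**Figure D1:**
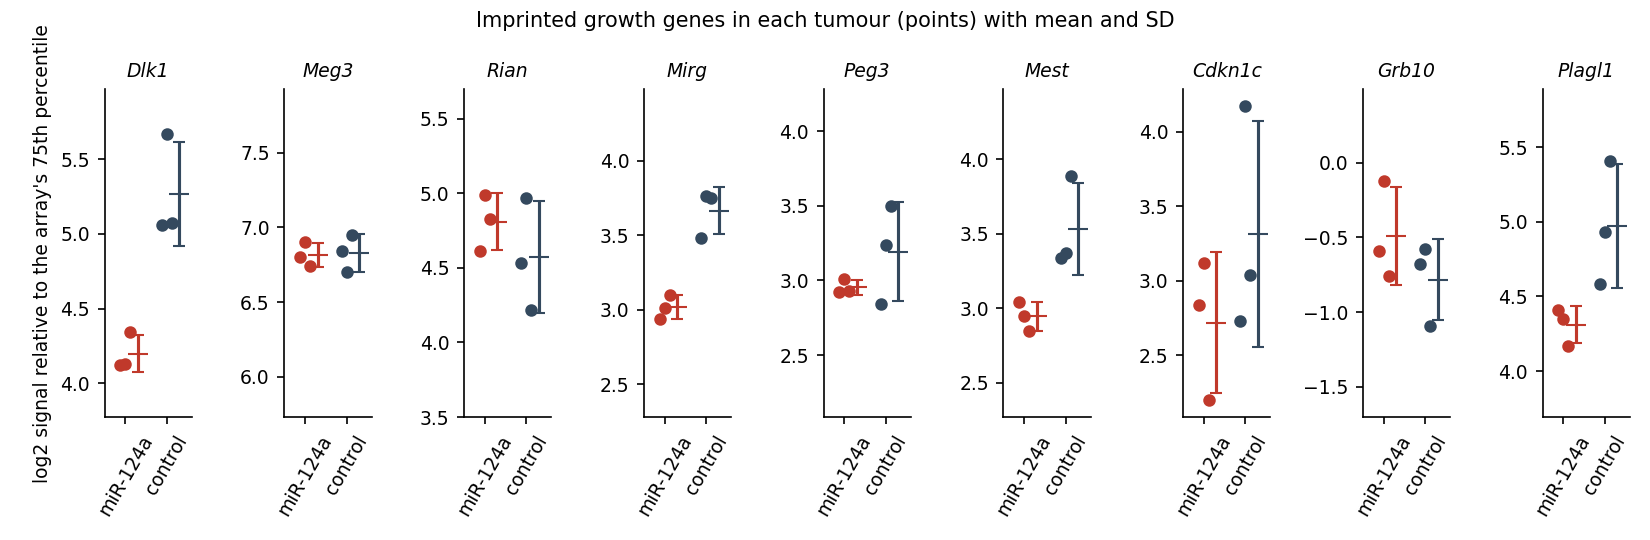
Signal of each tested imprinted growth gene in every tumour, as log2 relative to the array's 75th percentile, 1 panel per gene with its own axis of equal length. Points are tumours and bars are the mean and SD of 3 tumours; the groups do not overlap for Dlk1, Mirg, Mest and Plagl1.

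Dlk1 encodes a membrane protein related to the Notch ligands, which keeps precursor cells of fat and other tissues immature and is switched on in developing and regenerating muscle. Its brighter probe, A_66_P117477 (chr12:110698721-110698781, mm9), read 4.12, 4.13 and 4.34 in the miR-124a tumours, against 5.06, 5.67 and 5.07 in the control tumours. The groups did not overlap, the miR-124a tumours lay close together, and control 2 stood above the other control tumours. The means were 4.20 ± 0.12 in miR-124a tumours and 5.27 ± 0.35 in control tumours (SD, n = 3 each), a difference of -1.07 ± 0.19 or 2.10-fold lower (limma, adjusted p = 0.0427). As spot intensity, this is 5252, 5210 and 6364 in miR-124a tumours and 9265, 14270 and 9819 in control tumours.

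The second Dlk1 probe, A_52_P177324 (chr12:110698428-110698487), read 1.19, 1.26 and 1.34 in miR-124a tumours and 2.14, 2.90 and 2.27 in control tumours. Again no miR-124a tumour reached a control tumour and control 2 was highest. The difference was -1.17 ± 0.20, or 2.25-fold lower (limma over probes, adjusted p = 0.0431). Both Dlk1 probes therefore passed, and with 1 Mirg probe they made 3 of the 23 member probes, where 2.78% of all probes passed. Of the 23 probes, 17 had a difference below 0 and 6 above.

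**Figure D2:**
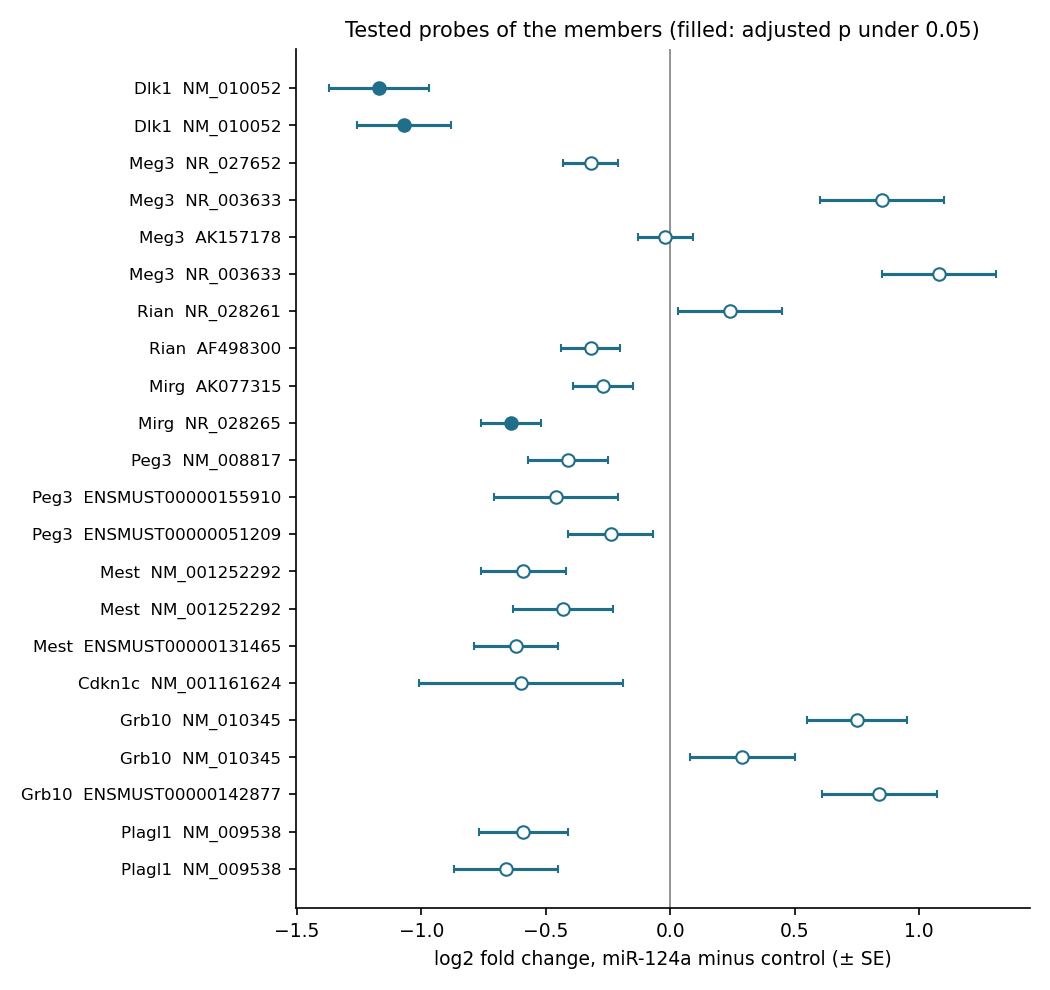
Difference between miR-124a and control tumours for 22 of the tested probes of the imprinted growth genes, in log2 units with its standard error, labelled by gene and transcript record. Filled points are the 3 probes past the threshold; all 6 probes right of 0 belong to Meg3, Rian and Grb10.

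Mirg is a noncoding RNA whose transcript carries a cluster of microRNAs. Its representative probe, A_66_P121059, read 2.94, 3.01 and 3.10 in miR-124a tumours, against 3.48, 3.76 and 3.75 in control tumours. The groups did not overlap, and the nearest tumours were miR-124a 3 and control 1. Mirg averaged 3.02 ± 0.08 in miR-124a tumours and 3.66 ± 0.16 in control tumours (SD, n = 3 each), and the difference of -0.64 ± 0.11 passed (limma, adjusted p = 0.0434).

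The second Mirg probe, A_55_P2336173, read 3.10, 3.22 and 3.06 in miR-124a tumours and 3.38, 3.22 and 3.57 in control tumours. Its groups touched at 2 decimals, and its difference of -0.27 ± 0.12 did not pass (limma over probes, adjusted p = 0.219). Which probe stands for Mirg decides its call: with normexp background correction and the brightest probe chosen again on those values, the second probe represented Mirg and gave -0.21 (limma, adjusted p = 0.317). With the mean of both probes the difference was -0.46 (adjusted p = 0.0661). Over 15 settings that kept the probe or averaged both, the adjusted p for Mirg ran from 0.0188 to 0.152.

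Mature microRNAs encoded within the members are shown because Meg3, Rian and Mirg are their host transcripts. They were not measured by these probes. RefSeq places 1 hairpin within Meg3, 3 within Rian, 10 within Mirg and 1 within Mest. Capitals mark the seed, bases 2 to 8, which pairs with targets. Among the mature sequences of Mirg, mmu-miR-453 and mmu-miR-496a-5p have the same seed.

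mmu-miR-770-5p (Meg3): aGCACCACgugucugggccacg
mmu-miR-370-3p (Rian): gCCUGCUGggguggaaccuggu
mmu-miR-453 (Mirg): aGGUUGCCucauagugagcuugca
mmu-miR-496a-5p (Mirg): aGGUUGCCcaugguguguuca
mmu-miR-541-5p (Mirg): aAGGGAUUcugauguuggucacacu
mmu-miR-409-3p (Mirg): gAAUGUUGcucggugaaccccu
mmu-miR-410-3p (Mirg): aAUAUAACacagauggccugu
mmu-miR-335-5p (Mest): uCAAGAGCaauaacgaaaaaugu

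Meg3 is the noncoding RNA at the head of the maternally read series, known for restraining cell growth in cultured cells. Its representative probe, A_55_P2736854, read 6.80, 6.90 and 6.74 in miR-124a tumours and 6.84, 6.70 and 6.95 in control tumours. The groups overlapped across their range, and the difference was -0.02 ± 0.10 (limma, adjusted p = 0.930). Its sign turned under other settings, to 0.21 with quantile scaling and 0.28 with the mean of all Meg3 probes, and neither passed.

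The differences of the Meg3 probes lay on both sides of 0. The 2 probes listed under NR_003633 were higher in every miR-124a tumour than in any control tumour. A_55_P2736010 read 5.92, 6.37 and 6.07 in miR-124a tumours, against 5.81, 4.91 and 5.10 in control tumours, a difference of 0.85 ± 0.25 (limma over probes, adjusted p = 0.110). A_65_P01584 read 3.55, 4.05 and 3.68 in miR-124a tumours, against 3.12, 2.36 and 2.57 in control tumours, a difference of 1.08 ± 0.23 (adjusted p = 0.0633). Neither passed here, and over 14 other settings the first never did, while A_65_P01584 passed in 2, with a lowest adjusted p of 0.0327. In both probes miR-124a 2 was highest and control 1 stood above the other control tumours.

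Beside these, A_51_P455997 and the representative probe had differences at or below 0. A_51_P455997, which lies farthest along the gene, read 5.70, 5.71 and 5.80 in miR-124a tumours and 6.05, 5.93 and 6.20 in control tumours. Its groups did not overlap, with the miR-124a tumours lower, and its difference of -0.32 ± 0.11 did not pass (limma over probes, adjusted p = 0.131). It was -0.11 with quantile scaling and -0.05 under normexp background correction. This grouping of the probes by transcript record was made after their values were seen, so it is a description without a test. The mean of the 2 NR_003633 probes minus the mean of those other 2, each relative to its control mean, was 0.95, 1.37 and 1.07 in the miR-124a tumours and 0.48, -0.21 and -0.27 in the control tumours. This is a ratio within an array, and it does not say which of the probes kept its level.

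**Figure D3:**
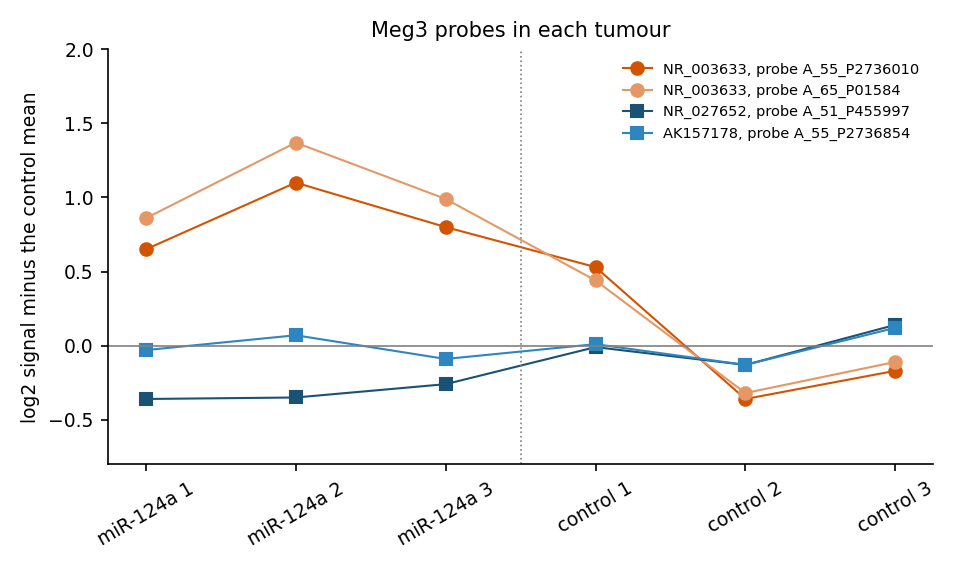
Signal of 4 Meg3 probes in each tumour, in log2 units relative to the probe's control mean, with lines joining the values of 1 probe. The 2 NR_003633 probes (circles) are higher in every miR-124a tumour than in any control tumour, while the other 2 probes (squares) lie between -0.36 and 0.14.

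Rian carries small nucleolar RNAs and further microRNAs between Meg3 and Mirg. Its representative probe, A_55_P2723831, read 4.61, 4.99 and 4.83 in miR-124a tumours and 4.53, 4.97 and 4.22 in control tumours. The groups overlapped, and the difference of 0.24 ± 0.21 did not pass (limma, adjusted p = 0.494). The second probe, A_55_P2741381, read -0.61, -0.41 and -0.48 in miR-124a tumours and -0.09, -0.35 and -0.12 in control tumours. These groups did not overlap and the sign was the opposite, -0.32 ± 0.12, without passing (limma over probes, adjusted p = 0.154). With the mean of both probes the difference for Rian was -0.04, and with the representative probe it ran from 0.06 without control 3 to 0.44 without control 2.

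The nearest neighbours of this region were also measured. Begain, a protein of the synapse upstream of Dlk1, had a difference of 0.55 ± 0.18 (limma, adjusted p = 0.127). It read 2.59, 3.10 and 2.84 in miR-124a tumours and 2.58, 2.23 and 2.08 in control tumours, groups that barely kept apart. Dio3, at the other end, encodes the enzyme that inactivates thyroid hormone and had a difference of -0.10 ± 0.30 (adjusted p = 0.856). Rtl1, a gene derived from a retrotransposon, was too dim to test. Thus 0 of the tested neighbours on either side of Dlk1 and Mirg passed.

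Peg3, Mest and Plagl1 are the other members read from the father's copy. Peg3 and Plagl1 encode zinc finger proteins that bind DNA, and Mest encodes a protein of the hydrolase family that is raised in growing fat tissue. None of them passed, and all of their 8 tested probes had differences below 0.

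Mest was represented by A_55_P2090025 (chr6:30697385-30697444, mm9), which read 3.04, 2.95 and 2.85 in miR-124a tumours and 3.34, 3.37 and 3.89 in control tumours. The groups did not overlap and control 3 was highest. The difference was -0.59 ± 0.17 (limma, adjusted p = 0.0975). Its other tested probes gave -0.62 ± 0.17 and -0.43 ± 0.20 (limma over probes, adjusted p = 0.0958 and 0.233), both also without overlap. The first of these was -0.30 under normexp and the second -0.21 without control 3, and 1 further probe was too dim to test on all 6 arrays.

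Plagl1 was represented by A_55_P1961968 (chr10:12850832-12850891, mm9), which read 4.41, 4.35 and 4.17 in miR-124a tumours and 4.58, 4.93 and 5.41 in control tumours. The groups did not overlap, and the control tumours spread more widely than the miR-124a tumours. The difference was -0.66 ± 0.21 (limma, adjusted p = 0.120), and -0.41 under normexp background correction. A second probe gave -0.59 ± 0.18 (limma over probes, adjusted p = 0.117), or -0.32 under normexp, and 1 probe was too dim to test on all 6 arrays.

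With Dlk1 and Mirg, these make 4 of the 9 tested members whose groups did not overlap, all lower in miR-124a tumours. Over all genes 35.6% of groups did not overlap, 20.6% as lower in miR-124a tumours and 15.0% as higher, so such a separation is common in this comparison.

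Peg3 was represented by A_65_P05169 (chr7:6657078-6657137, mm9), which read 2.92, 3.01 and 2.93 in miR-124a tumours and 2.84, 3.24 and 3.50 in control tumours. Control 1 lay below all 3 miR-124a tumours, so the groups overlapped, and the difference was -0.24 ± 0.17 (limma, adjusted p = 0.411). It was -0.08 without control 3, -0.42 without control 1 and -0.37 with the mean of the probes. Its other probes gave -0.41 ± 0.16 and -0.46 ± 0.25 (limma over probes, adjusted p = 0.176 and 0.284), where the last was -0.19 without control 3 and -0.24 under normexp.

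Cdkn1c, Grb10 and Phlda2 are read from the mother's copy and restrain growth in the mouse embryo or placenta. Cdkn1c inhibits the cyclin-dependent kinases that drive the cell cycle, Grb10 is an adaptor that dampens signalling from the insulin and IGF receptors and is read from the father's copy in neurons, and Phlda2 limits growth of the placenta. Cdkn1c and Grb10 did not pass, and their differences had opposite signs. Phlda2 was not tested.

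Cdkn1c was read by A_55_P2733752 alone (chr7:150644297-150644356, mm9), with 2.84, 3.12 and 2.20 in miR-124a tumours and 2.73, 4.17 and 3.04 in control tumours. The groups overlapped, with miR-124a 3 lowest and control 2 highest. Cdkn1c averaged 2.72 ± 0.47 in miR-124a tumours and 3.32 ± 0.76 in control tumours (SD, n = 3 each), and the difference of -0.60 ± 0.42 did not pass (limma, adjusted p = 0.391). This was the largest standard error among the tested members. The difference was -0.17 without control 2 and -0.34 without miR-124a 3.

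Grb10 had differences above 0 at all 3 of its probes, without passing. Its representative probe A_55_P1955457 (chr11:11833165-11833224, mm9) read -0.59, -0.12 and -0.76 in miR-124a tumours and -0.68, -0.58 and -1.09 in control tumours. The groups overlapped and the difference was 0.29 ± 0.21 (limma, adjusted p = 0.406). It was 0.11 without miR-124a 2, 0.14 without control 3, 0.19 with array weights and 0.63 with the mean of the probes.

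The dimmer Grb10 probes separated the groups. A_52_P40363 read -2.78, -2.08 and -2.66 in miR-124a tumours and -3.34, -3.36 and -3.07 in control tumours, a difference of 0.75 ± 0.20 (limma over probes, adjusted p = 0.0933). A_55_P2717329 read -3.10, -2.48 and -2.89 in miR-124a tumours and -3.30, -3.78 and -3.94 in control tumours, a difference of 0.84 ± 0.23 (adjusted p = 0.0916). In all 3 Grb10 probes miR-124a 2 was the highest tumour. Under normexp background correction these differences were smaller, 0.31 for A_52_P40363 and 0.27 for A_55_P2717329.

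Phlda2 had 1 probe, A_52_P350786 (chr7:150687464-150687523, mm9), which was dim on all 6 arrays (not well above background), so no fold is given.

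Other imprinted genes were counted over a list of 51, of which 47 were tested. In the miR-124a tumours 2 fell, 0 rose and 45 did not pass, with a median difference of 0.08. The 26 tested genes known as read from the father's copy had a median of 0.23, with 17 differences above 0 and 9 below. The 21 read from the mother's copy had a median of -0.24, with 7 above 0 and 14 below, and 0 of them passed. The difference between these lists was not tested. In this fit 6267 genes, 27.3% of all, had an unadjusted p under 0.05, as did 14 of the 26 tested genes read from the father's copy and 7 of the 21 read from the mother's copy.

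The 2 that fell were Igf2 and Slc38a4, both read from the father's copy. Igf2 is the fetal growth factor of the insulin family and is made in quantity by developing muscle. It read 3.44, 3.39 and 3.57 in miR-124a tumours and 4.81, 5.21 and 4.32 in control tumours, without overlap, a difference of -1.32 ± 0.22 (limma, adjusted p = 0.0400). Slc38a4, an amino acid transporter, read 0.63, 0.57 and 0.39 in miR-124a tumours and 1.44, 1.89 and 1.47 in control tumours, a difference of -1.07 ± 0.15 (adjusted p = 0.0279). In Dlk1, Igf2 and Slc38a4 alike control 2 was the highest of the 6 tumours. All tested probes of these genes pointed the same way, from -1.50 to -1.32 for Igf2 and from -1.32 to -1.07 for Slc38a4. With 1 tumour left out Igf2 passed without control 3 and in none of the other 5 fits, and Slc38a4 passed in 0 of 6.

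The largest differences that did not pass were those of Calcr, H19, Tspan32 and Magel2. Calcr, the calcitonin receptor, differed by -1.04 ± 0.34 (limma, adjusted p = 0.124). H19, the noncoding RNA beside Igf2 that is read from the mother's copy, read 5.72, 4.76 and 6.41 in miR-124a tumours and 5.73, 6.92 and 7.29 in control tumours. Its groups overlapped, and its difference of -1.02 ± 0.54 did not pass (adjusted p = 0.272). Without miR-124a 2 it was -0.58, and with array weights -0.63. Tspan32, a membrane protein, differed by -0.93 ± 0.26 (adjusted p = 0.0939), but by -0.19 under normexp background correction, with intensities of 9.608 to 13.42 in miR-124a tumours and 14.39 to 27.1 in control tumours. Magel2, a partner of ubiquitin ligases, differed by 0.67 ± 0.32 (adjusted p = 0.224), and by 0.40 without control 1.

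**Figure D4:**
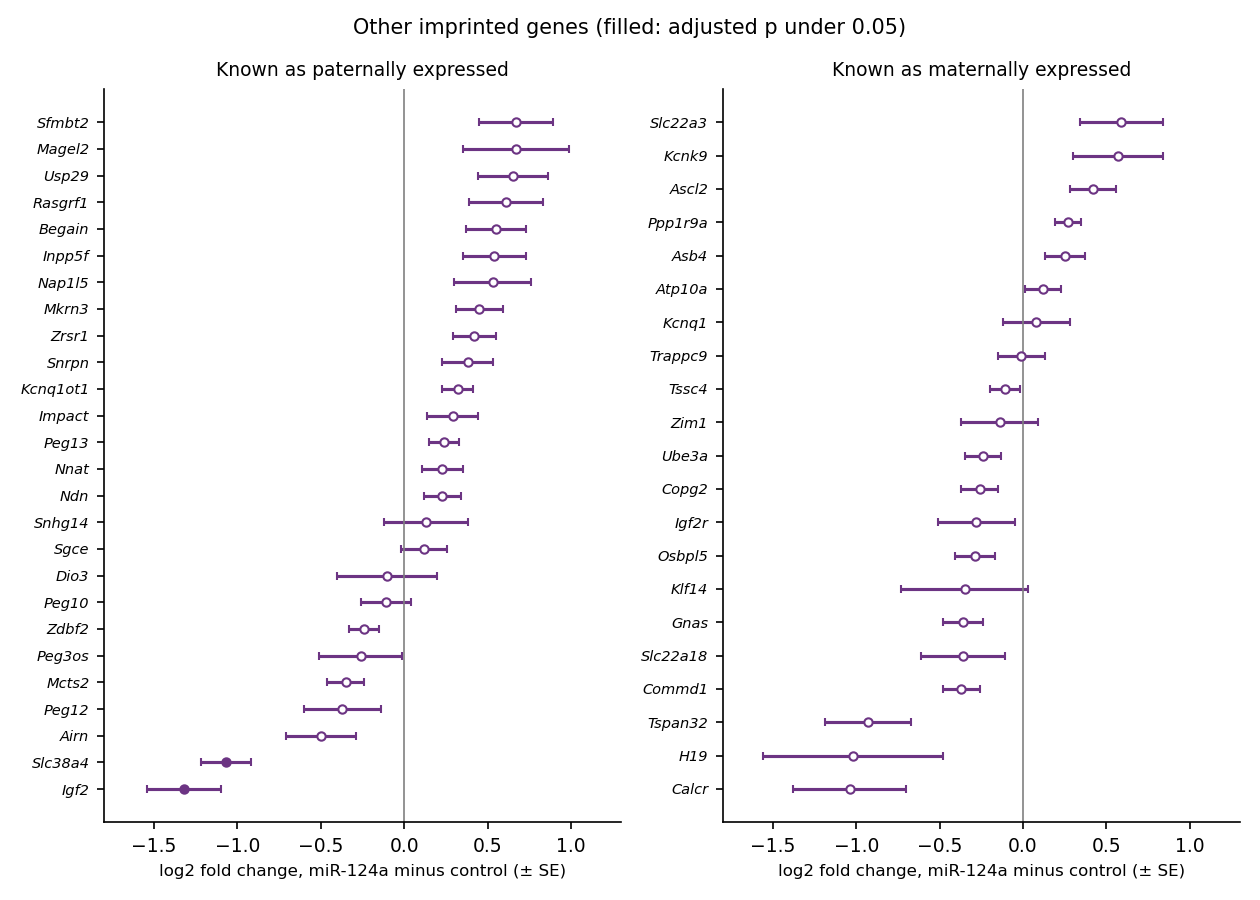
Difference between miR-124a and control tumours for the 47 tested imprinted genes outside the set, in log2 units with standard errors, in 2 panels by the parental copy they are known to be read from. Filled points passed the threshold, which Igf2 and Slc38a4 did, both below 0.

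Of 26 genes that neighbour the members at their loci, 25 were tested and 0 passed (limma), while 10 had an unadjusted p under 0.05. Their differences ran from -0.93 to 0.65 with a median of -0.11, 8 above 0 and 17 below. The neighbours are not a separate set: many, including Tspan32 and Usp29 at the ends of that range, are also among the other imprinted genes counted above. Ltv1, a factor of ribosome assembly beside Plagl1, had -0.35 ± 0.08 (adjusted p = 0.0745) and passed under normexp background correction and under the fit with trend and robust estimation. Kcnq1ot1, the noncoding RNA of the Cdkn1c locus, had 0.32 ± 0.09 (adjusted p = 0.103) and passed under normexp alone. The tested probes of a neighbour did not always share a sign. Those of Kcnq1ot1 ran from -0.05 to 0.45 and those of Usp29 from -0.46 to 0.66.

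Markers of skeletal muscle were lower in the miR-124a tumours, like the called members. All 10 of the 10 listed muscle markers were tested and all fell in miR-124a tumours, with differences from -1.99 to -1.00 and a median of -1.67. Among them Myod1, a master regulator of muscle fate, differed by -1.99 ± 0.22 (limma, adjusted p = 0.0211) and Pax7, a factor of muscle stem cells, by -1.94 ± 0.24 (adjusted p = 0.0232). The summed scaled signal of the list, which is the sum of linear intensities relative to the array's 75th percentile, lay between 156.5 and 221.2 in miR-124a tumours and between 398.0 and 627.0 in control tumours. This sum is weighted to the brightest probes, such as that of Myh8. The median marker relative to its control mean, which is not so weighted, was -1.88, -1.83 and -1.33 in miR-124a tumours. In control tumours it was -0.08, 0.31 and -0.26. Without miR-124a 2, or without control 2, 0 of all 22946 genes passed (limma), muscle markers included, with 4103 and 4782 genes at an unadjusted p under 0.05. None of the muscle markers was below background, and control 2, highest for Dlk1 and Igf2, was also highest in this sum. Among the control tumours Mirg was also highest in control 2 (3.76), narrowly above control 3 (3.75). Dlk1, Mirg and Slc38a4 were lowest of the control tumours in control 1 (5.06, 3.48 and 1.44), for Dlk1 only just. Igf2 (4.32) and the sum (398.0) were lowest of the control tumours in control 3. The part of muscle content in the lower Dlk1, Mirg, Igf2 and Slc38a4 was not tested.

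**Figure D5:**
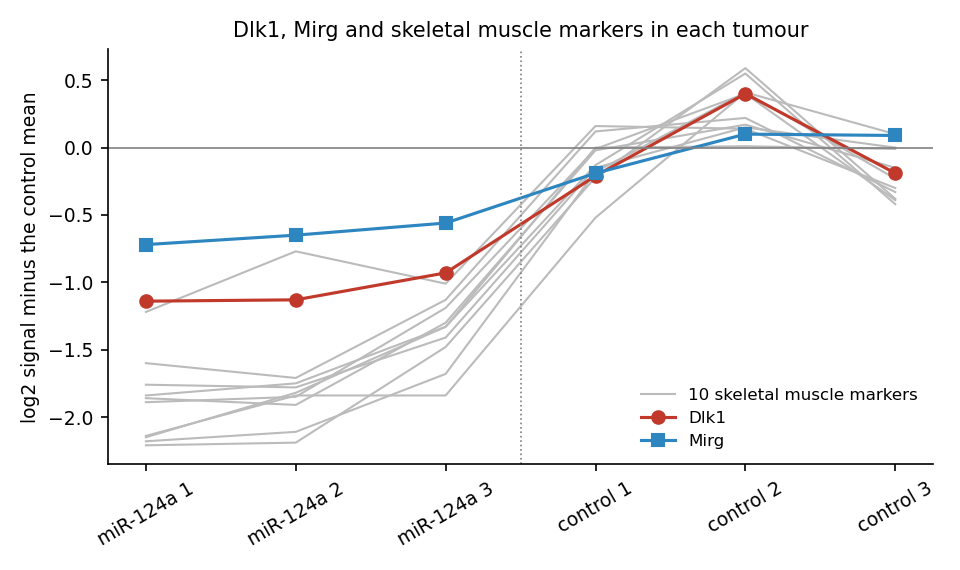
Signal of Dlk1, Mirg and 10 skeletal muscle markers in each tumour, in log2 units relative to the control mean, with lines joining the values of 1 gene. Dlk1 lies 0.93 to 1.14 and Mirg 0.56 to 0.72 below the control mean in the miR-124a tumours, where most muscle markers lie lower still.

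Other tissues in the tumours were counted in the same way. All 8 neuron markers had differences above 0, with a median of 0.42, and 0 passed. Their summed scaled signal was 148.9 to 187.2 in miR-124a tumours and 110.9 to 129.4 in control tumours, weighted to bright probes such as that of Stmn2. Of the 5 intestinal markers 3 were tested and 2 fell, while Cdx2 and Cdh17 were dim on all 6 arrays. Of the 8 trophoblast markers 5 were tested and 0 passed. Synb and Hand1 were too dim to test, and Prl2c2 was not analysed here. The probe counted for Gcm1 is listed on chromosome 7, and whether it reads that gene was not checked. Among markers of cartilage, fibroblasts, fat, fetal liver, endothelium, macrophages, pluripotent cells and keratinocytes 0 passed, with list medians from -1.64 for fetal liver to 0.22 for pluripotent cells. All 4 tested fat markers had differences below 0, with a median of -1.03, and so did 3 of the 4 tested for fetal liver. Adipoq, Cidec and Lep had low intensities, from 9.787 to 132.0, though well above background. Alb and Apoa1 were well above background on 3 control arrays each, but on 1 and 0 of the miR-124a arrays. They thus entered the test only through the control tumours, where they were high, and the fetal liver counts and median rest in part on them. The part of these cell types in the members' values was not tested.

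The genes whose values ran most like a member across the 6 tumours are given as a description, by Pearson's r over 6 points that share slide, scaling and, in part, group. For Dlk1 these were Bag2, Cav3, Psmc3 and Acaa2 (r = 0.998 each) and Atp5g2 (r = 0.997). Cav3 encodes the caveolin of muscle cells and fell by 1.59 on the log2 scale (limma, adjusted p = 0.0327), Bag2 a partner of heat shock proteins, Psmc3 a proteasome subunit, Acaa2 an enzyme of fatty acid breakdown and Atp5g2 a subunit of ATP synthase. For Meg3 they were Dusp9, Zfp74 and Suco (r = 0.976 each), Gtf2h2 (0.951) and Ipo5 (0.949). For Cdkn1c they were Gtpbp3 (0.994), Mvk (0.988), Ube2k (0.986), Irf2bpl (0.983) and BC051019 (0.976). No p is attached to these correlations.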

How the data were processed

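Per the file headers, the authors' scanner files hold spot intensity from Agilent Feature Extraction 11.5.1.1, after its own background and spatial correction, with surrogates in place of low values and no scaling between arrays. The version is also in the submitters' processing notes. The authors' deposited value table holds log2 values; set against the scanner files it was the log2 intensity shifted by a constant per array (SD of the difference 0.0029 to 0.003), with a 75th percentile of 0.01 and column medians from -3.07 to -2.97. Its probes were not centred and higher values mean more signal; the software behind it is not given in the sources used.

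Control spots were left out, spots of a probe averaged (56605 probes), and 22 probes with outlier flags dropped. The processed intensity was taken as log2 minus the array's 75th percentile, which lay between 278.6 and 315.2. A probe was tested if a group had it well above background on all 3 of its arrays, and the brightest tested probe represented a gene. The group difference was fitted with limma 3.58.1 under R 4.3.3 (lmFit, eBayes, 6 arrays, no covariates, Benjamini-Hochberg, threshold 0.05), in a fit over genes and another over probes. The fit was tested on simulated data. Alternatives were quantile scaling, normexp (offset 50) with quantile scaling, the authors' table, other filters on dim probes, averaged probes, a replicate block, trend with robust estimation, array weights and leaving out each tumour. The number of arrays limits the precision. Members were matched by the gene name in the scanner files, and other probes were named by accession in the GRCm38.p6 RefSeq table (32962), symbol (10214), older symbol (520) or the file's own name (12861). Positions of probes come from the array's annotation, build mm9. Figures were drawn with matplotlib 3.10.9.

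The members, gene lists, rule for named genes and alternatives were chosen with earlier results of these data known. Named are all 10 members with their probes, except 1 Meg3 probe that is counted in the totals and not reported here, the listed imprinted genes and neighbours past the threshold, the 4 largest differences that missed it, the neighbours nearest to a called member, and the 5 genes most like Dlk1, Meg3 and Cdkn1c, passing over names of predicted genes and clones (Gm, LOC, Rik). Ltv1, Kcnq1ot1, Myod1 and Pax7 were named after their values were seen. The choice to keep the filter and the probe of each gene fixed across alternatives was also made after results under both had been seen.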

Additional observations from a re-analysis of the deposited data

How the results depend on the processing

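Dlk1 stayed below 0 in all 15 alternative settings (-1.17 to -0.87, limma adjusted p 0.0205 to 0.149) and lost its call in 8: no filter, the replicate block and the 6 fits that left out a tumour. Mirg stayed below 0 (-0.74 to -0.46) and lost its call in 11, the same 8 plus quantile scaling, array weights and the mean of probes. Of the members, 2 passed in the main setting; 1 passed with quantile scaling, with averaged probes and with array weights, and 0 with no filter and with the replicate block. Leaving out a tumour gave 0 members and 0 member probes in each of 6 fits, 0 to 1 other imprinted genes (Igf2 without control 3), and 0 to 375 of all genes, against 742. Without miR-124a 1, 2 and 3 the counts over all genes were 1, 0 and 375, and without control 1, 2 and 3 they were 13, 0 and 353; the unadjusted count ran from 4103 to 6117. The cause was not tested.

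Normexp called 1540 of all genes, 62.1% of them lower against 84.9% in the main setting, 6 other imprinted genes and 2 neighbours. Trend with robust estimation called 1725 genes and 1 neighbour. Without the filter 96 of 37001 genes passed, and 0 of the members, their 26 probes and the other imprinted genes did. In that setting 6714 genes had an unadjusted p under 0.05, and the cause of the lower count was not tested. Meg3 turned above 0 with quantile scaling (0.21), normexp (0.21), the mean of probes (0.28), without control 3 (0.04) and without miR-124a 3 (0.02), where the fits without a tumour ran from -0.08 to 0.04, and Rian turned to -0.04 with the mean of probes. No other member changed sign in those 15 settings.

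The replicate numbers are shared by the groups. Deviations from the group means had correlations of -0.155, -0.039 and -0.065 for samples of the same number, and from -0.208 to 0.337 for other pairs. With 3 tumours per group, these values cannot settle whether the numbers pair the tumours. With the replicate block 0 of 22946 genes, 0 member probes and 0 other imprinted genes passed (limma; 4954 genes at an unadjusted p under 0.05), and Dlk1 and Mirg had adjusted p of 0.141 and 0.140.

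Alternatives added after seeing the data chose the brightest probe again within the setting. With quantile scaling 1 member passed (Dlk1), and Meg3 was at 0.21. With normexp 1 member passed (Dlk1), with 6 other imprinted genes, 2 neighbours and 1538 genes in all; Meg3 was at 0.21 and Mirg at -0.21. With a tumour left out, and the filter also set again, 0 members passed, and the counts over all genes were 2, 0 and 366 without miR-124a 1, 2 and 3 and 15, 1 and 368 without control 1, 2 and 3. Without control 2 the second probe then stood for Mirg, at -0.35 (adjusted p = 0.192).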
